A study of Homo sapiens with 6 samples.

Results

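The genes described here are 29 members of the fatty acid oxidation pathway and the PPAR system, chosen by symbol from the deposited table of 58825 genes; each symbol matched 1 row, and all 29 were measured. They comprise 22 enzymes and carriers of beta-oxidation, the receptors PPARA, PPARD and PPARG with the coactivator PPARGC1A, and the PPAR target genes UCP2, PDK4 and ANGPTL4. Poly(A) RNA-seq had been made from HK-2 cells, an immortalised human proximal tubular epithelial line, in 6 libraries. The Control group consisted of 3 untreated libraries, and the OX-LDL group of 3 libraries from cells given 25 μg/ml oxidised low-density lipoprotein for 48 h. The labels give no further genetic or drug treatment of either group, and the methods describe a period in low-serum medium before OX-LDL was added. All libraries come from 1 cell line, and in such bulk samples fewer cells that express a gene and less RNA per cell cannot be told apart. The labels do not say whether the libraries of a group came from separate cultures, so each p-value measures the spread between these libraries, which may be technical.

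Fatty acids are burned in a spiral of repeated reactions inside mitochondria. Long acyl-CoAs first pass the inner membrane as carnitine esters, a step in which CPT1A is rate-limiting; each turn then dehydrogenates, hydrates, dehydrogenates again and splits off acetyl-CoA, while the electron transfer flavoprotein carries electrons to the respiratory chain. Peroxisomes shorten very long and branched chains by a parallel route. PPAR alpha, delta and gamma are nuclear receptors for fatty acids that bind DNA together with RXR and raise transcription of many of these enzymes and of genes such as PDK4 and ANGPTL4. Proximal tubule cells of the kidney rely on fatty acid oxidation as a main source of ATP.

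Library totals were between 62561347 and 76797607 deposited counts, and a read pair gave about 4 counts. Levels are in FPKM (fragments per kilobase of transcript, scaled to library size), and changes are edgeR log2 fold changes of OX-LDL over Control with their standard error (SE). A gene was called where its p-value, adjusted over all 19510 tested genes by the Benjamini-Hochberg method, was under 0.05. The first principal component, with 39.3% of the variance, separated the groups. On the second component OX-LDL 2 lay apart at -53.8, with the other libraries between -15.3 and 30.4. HK-2 cells were checked against markers: 8 of 11 proximal tubule rows were below 0.2 FPKM in every library, among them LRP2, CUBN, AQP1, SLC34A1 and HNF4A, and LRP2 was at 0 counts throughout. Of 9 renal epithelial markers, 7 had a mean of at least 1 FPKM, with EPCAM, KRT8 and KRT18 above 30 FPKM in every library, while CDH1 (0.0276 to 0.144 FPKM) and PAX2 (0.225 to 0.661 FPKM) were low. PAX8 was 2.34-fold lower in OX-LDL (adjusted p = 0.0182) and CDH6 2.56-fold higher (adjusted p = 0.00475). PTPRC, CD3E and the markers of endothelium, adipocytes and hepatocytes were below 0.1 FPKM, as were all fibroblast markers but COL1A1. The summed leukocyte list was at 3.11 to 7.74 FPKM in Control and 9.16 to 14.0 in OX-LDL, nearly all of it CD68, which is also a lysosomal protein of other cells. The summed proximal tubule list was at 19.0 to 26.7 and 16.1 to 17.9 FPKM, nearly all of it GGT1. GGT1 has 2 rows that overlap on the same strand and went opposite ways. The first was at 3.13, 18.2 and 3.88 FPKM in Control and at 15.8, 17.7 and 16.1 in OX-LDL (adjusted p = 0.336). The second was at 18.2, 0.0518 and 22.6 FPKM in Control and at most 0.0658 in OX-LDL (adjusted p = 0.0371). In both rows the groups overlapped. The summed renal epithelial list was at 207 to 232 and 252 to 287 FPKM. The part of these lists in the results below was not tested.

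OX-LDL treatment was accompanied by lower UCP2, PDK4 and CPT1A and by higher ACADSB, ECI2 and EHHADH. These 6 of 29 genes (20.7%) were called, 3 in each direction; over all tested genes 15.3% were called, 7.91% higher and 7.42% lower, so the share among the 29 lies near that of the transcriptome. The median log2 fold change of the 29 genes was -0.03, beside -0.00432 for all tested genes. The FPKM values of the groups did not overlap for 13 of 29 genes (44.8%), 7 higher and 6 lower, against 37.2% of all tested genes (16.8% higher and 20.5% lower). A change above 2-fold with an unadjusted p under 0.05 was seen for 2 genes, ACADSB and PDK4, and for 6.36% of all tested genes. The summed level of the 22 enzymes and carriers was 347 ± 11.0 FPKM in both groups (SD, n = 3). ECHS1 and HADHA, at 95.0 and 66.8 FPKM in Control, weigh most in this sum, so changes of genes at low levels hardly show in it.

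**Figure D1:**
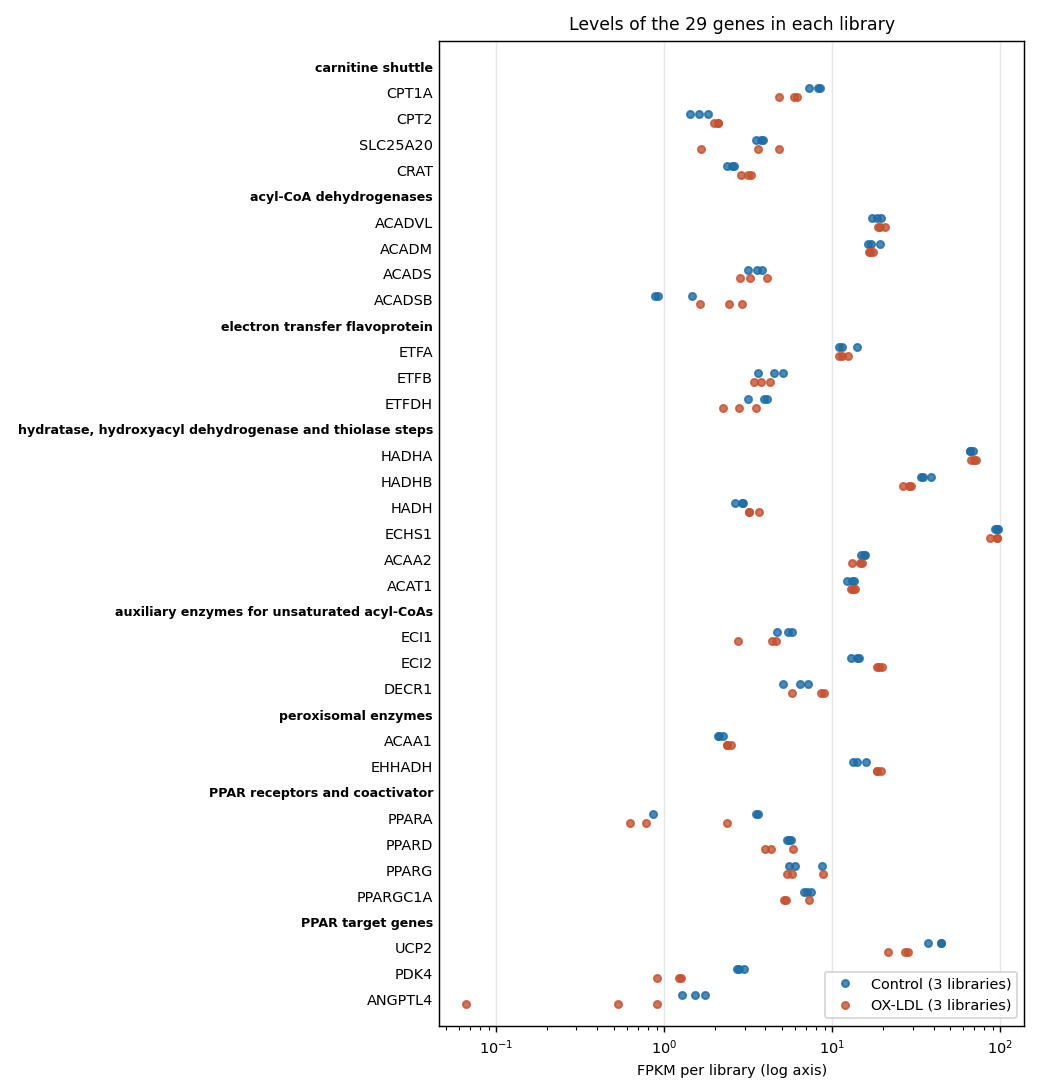
Levels of the 29 genes, ordered by role, in FPKM on a log axis. Each point is 1 library, blue for Control and orange for OX-LDL, with 3 of each per gene; ECHS1 and HADHA are highest, the groups of PDK4 and UCP2 lie apart, and ANGPTL4 and PPARA show the widest spread within a group.

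The genes differed widely in level. ECHS1, the short-chain enoyl-CoA hydratase, was the highest at 95.0 ± 2.11 FPKM in Control, followed by HADHA at 66.8 ± 1.88, UCP2 at 41.8 ± 4.03 and HADHB at 35.7 ± 2.79, whose libraries overlapped. The lowest in Control was ACADSB at 1.08 ± 0.333 FPKM, then ANGPTL4 at 1.52 ± 0.238 and CPT2 at 1.61 ± 0.201, which did not differ beyond their spread. Averaged over both groups, all 29 genes reached 1 FPKM and 11 reached 10 FPKM.

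The receptors come first in the pathway. PPARA, the main fatty acid receptor of liver and proximal tubule, was listed at 3.59, 0.859 and 3.49 FPKM in Control and at 2.36, 0.773 and 0.623 FPKM in OX-LDL. The groups overlapped, since Control 2 was as low as the lower OX-LDL libraries, and the log2 fold change of -1.06 (SE 0.67) had an adjusted p of 0.349. PPARD, the most widely expressed receptor, was at 5.54 ± 0.133 FPKM in Control and 4.71 ± 1.01 in OX-LDL (log2 fold change -0.20, SE 0.16, adjusted p = 0.451). PPARG, best known from fat cells, was at 6.72 ± 1.73 and 6.66 ± 1.86 FPKM, with 1 high library in each group.

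PPARGC1A encodes the coactivator PGC-1α, which drives mitochondrial gene programmes. It stood at 7.45, 6.80 and 7.02 FPKM in Control and at 5.17, 7.22 and 5.29 FPKM in OX-LDL. OX-LDL 2 lay among the Control values and the other OX-LDL libraries below them (log2 fold change -0.23, SE 0.14, adjusted p = 0.323). For PPARD, OX-LDL 2 at 5.87 FPKM lay above all Control libraries and the other OX-LDL libraries, at 3.98 and 4.29 FPKM, below them. Without OX-LDL 2, PPARGC1A was called with a log2 fold change of -0.41 (adjusted p = 0.0274) and PPARD with -0.39 (adjusted p = 0.0461). Leaving out any other library gave no call of either gene, with adjusted p of at least 0.382 for PPARGC1A and 0.539 for PPARD. The fit without OX-LDL 2 called 15.1% of all tested genes, and the fits without another library called 5.95% to 10.2%. With all libraries none of the 4 genes passed the test, and none had an unadjusted p under 0.05 or was called by DESeq2. Among all 19510 tested genes, edgeR called 15.3%, 5936 had an unadjusted p under 0.05, and DESeq2 called 22.7%.

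All 3 target genes had separate groups, with every OX-LDL library below every Control library, and 2 were called. Over all tested genes, 37.2% had separate groups (20.5% lower) and 15.3% were called (7.42% lower). PDK4, the kinase that switches off pyruvate dehydrogenase and so spares glucose when fat is burned, was at 2.97, 2.80 and 2.70 FPKM in Control and at 0.907, 1.23 and 1.25 FPKM in OX-LDL. The Control libraries lay close together, and all were well above the highest OX-LDL library. PDK4 was 2.43-fold lower (log2 fold change -1.28, SE 0.16, adjusted p = 0.00554), and the call held without any single library. The gene lies on chromosome 7 at chr7:95583499-95596516, minus strand.

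UCP2, an inner-membrane carrier linked to fuel choice and mitochondrial reactive oxygen, was at 37.1, 44.2 and 44.1 FPKM in Control and at 28.0, 21.3 and 27.0 FPKM in OX-LDL. The highest OX-LDL library stayed below the lowest Control library. UCP2 (chr11:73974672-73982843, minus strand) was 1.61-fold lower (log2 fold change -0.68, SE 0.12, adjusted p = 0.0148). Without Control 2 the change was -0.65 and the adjusted p 0.0585.

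ANGPTL4, a secreted inhibitor of lipoprotein lipase, was at 1.27, 1.53 and 1.75 FPKM in Control and at 0.530, 0.0660 and 0.901 FPKM in OX-LDL. The OX-LDL values rest on 98, 15 and 205 counts. Every OX-LDL library was lower, but they differed among themselves by 13.7-fold, with OX-LDL 2 far below the others. The log2 fold change of -1.56 (SE 0.76) had an adjusted p of 0.221.

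**Figure D2:**
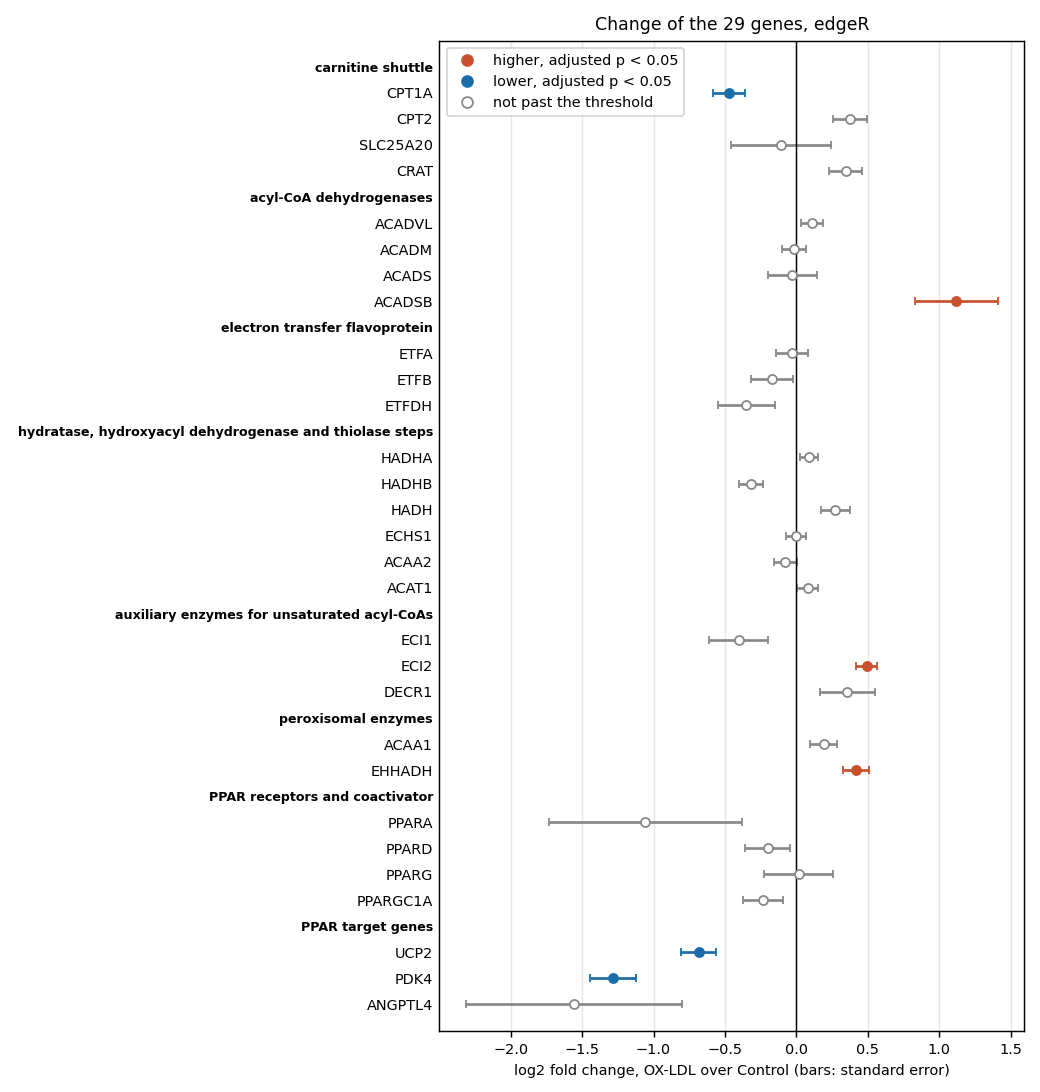
Change of each of the 29 genes as edgeR log2 fold change of OX-LDL over Control, with bars of 1 standard error and 3 libraries per group. Filled points passed the adjusted threshold of 0.05, orange for higher (ACADSB, ECI2, EHHADH) and blue for lower (CPT1A, UCP2, PDK4); open points did not, and 24 of 29 genes lie within 0.5 of 0.

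The sequence upstream of the start site is shown for the 3 called genes that were lower. It is not shown for the called genes that were higher, and for EHHADH no entry was used. RefSeq (GRCh38.p14) entries were used for 24 of 29 genes, and the 250 bases before the start were searched on both strands for 4 motifs: a PPAR response element (2 direct copies of AGGNCA with 1 base between them), a nuclear receptor half-site (AGGTCA), a GC box (GGGCGG) and a CCAAT box (CCAAT). The half-site is 1 form of the copies in the response element, and GC and CCAAT boxes may share bases. Capitals mark any match to the half-site, GC box or CCAAT box, in either orientation.
PDK4, chr7:95596517-95596766, minus strand: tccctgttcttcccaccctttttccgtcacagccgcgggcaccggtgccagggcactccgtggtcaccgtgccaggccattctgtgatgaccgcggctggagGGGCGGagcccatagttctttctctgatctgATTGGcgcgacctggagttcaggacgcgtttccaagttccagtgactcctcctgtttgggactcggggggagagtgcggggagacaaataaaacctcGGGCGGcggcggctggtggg
UCP2, chr11:73982844-73983093, minus strand: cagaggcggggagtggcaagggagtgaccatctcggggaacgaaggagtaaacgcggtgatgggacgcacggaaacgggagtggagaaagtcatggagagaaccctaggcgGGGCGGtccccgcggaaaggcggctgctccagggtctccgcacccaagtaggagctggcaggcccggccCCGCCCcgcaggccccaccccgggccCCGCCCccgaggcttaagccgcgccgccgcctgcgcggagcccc
CPT1A, chr11:68844278-68844527, minus strand: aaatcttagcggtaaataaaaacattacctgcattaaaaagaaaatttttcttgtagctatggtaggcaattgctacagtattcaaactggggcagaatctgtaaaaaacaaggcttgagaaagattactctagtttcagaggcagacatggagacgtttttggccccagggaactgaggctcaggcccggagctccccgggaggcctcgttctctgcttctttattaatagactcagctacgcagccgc
The PDK4 window holds 2 GC boxes and 1 inverted CCAAT box, the UCP2 window 3 GC boxes, and the CPT1A window no match. The RefSeq start of CPT1A lies 2346 bases from the start of the gene in the deposited table. No window of the 24 held the response element, which occurs in 0.268% of all 35116 RefSeq windows of this length. With a motif this rare, no match in 24 windows was likely beforehand, and sequence outside the windows was not searched. The RefSeq start used also lay 22988 bases from the gene start in the deposited table for PPARGC1A and 866 bases for ANGPTL4. The half-site was found in 1 of 24, that of PPARG, against 12.1% of all windows. GC boxes were found in 19 of 24 (79.2%) against 42.6%, and CCAAT boxes in 7 of 24 (29.2%) against 32.0%. These are letter matches only.

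In the carnitine shuttle 1 of 4 genes was called, beside 15.3% of all tested genes. CPT1A, which forms acyl-carnitines at the outer membrane, was at 7.27, 8.21 and 8.43 FPKM in Control and at 5.92, 4.80 and 6.13 FPKM in OX-LDL. All OX-LDL libraries were lower, by 1.39-fold in the mean of the fit (log2 fold change -0.47, SE 0.11, adjusted p = 0.0364). The gene spans chr11:68754620-68841931. The call was lost in each of the 6 fits that left out a library, with adjusted p from 0.0516 to 0.113.

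CPT2, which returns the acyl group to CoA on the matrix side, was at 1.60, 1.42 and 1.82 FPKM in Control and at 2.09, 1.97 and 2.09 FPKM in OX-LDL. The groups were separate in the opposite direction, without passing the test (log2 fold change 0.38, SE 0.12, adjusted p = 0.0845). CRAT, the acetyltransferase that buffers acetyl-CoA as acetyl-carnitine, was at 2.49 ± 0.117 and 3.09 ± 0.219 FPKM, also with separate groups (0.34, SE 0.12, adjusted p = 0.0974). DESeq2 called both, with adjusted p of 0.0318 for CPT2 and 0.0336 for CRAT. It was the only 1 of 9 other settings to do so, and each gene was called in 0 of 6 fits that left out a library. SLC25A20, the translocase between them, was at 3.76, 3.85 and 3.52 FPKM in Control and at 4.84, 1.66 and 3.61 FPKM in OX-LDL, so that OX-LDL 1 was the highest and OX-LDL 2 the lowest of all 6 libraries.

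The ratio of CPT1A to CPT2 in FPKM was 4.53, 5.80 and 4.63 in Control and 2.84, 2.43 and 2.94 in OX-LDL. Each OX-LDL library was below each Control library, and the mean went from 4.99 ± 0.704 to 2.74 ± 0.269. This and the other ratios below were picked with the values known and are given without a test. CPT2 shares its locus with CZIB on the other strand, and the strand setting of the authors' counting is not given in the sources used here.

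Of the 4 acyl-CoA dehydrogenases, which take the first hydrogen pair from acyl-CoA, ACADSB was called, beside 15.3% of all tested genes. ACADSB acts on short branched chains and is best known from isoleucine breakdown. It was at 1.47, 0.874 and 0.912 FPKM in Control and at 1.63, 2.41 and 2.88 FPKM in OX-LDL. The groups were separate by a narrow margin, with Control 1 and OX-LDL 1 close together. ACADSB (chr10:123008979-123058311) rose 2.17-fold (log2 fold change 1.12, SE 0.29, adjusted p = 0.0454). The call was lost without Control 2, Control 3, OX-LDL 2 or OX-LDL 3, with adjusted p of up to 0.142, and the log2 fold change stayed between 0.93 and 1.41.

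The dehydrogenases for straight chains differed less. ACADVL, for very long chains, was at 18.4 ± 1.15 FPKM in Control and 19.4 ± 0.884 in OX-LDL. ACADM, for medium chains, was at 17.5 ± 1.53 and 16.9 ± 0.403, and ACADS, for short chains, at 3.52 ± 0.336 and 3.37 ± 0.635. Their log2 fold changes were 0.11 (SE 0.08), -0.02 (SE 0.09) and -0.03 (SE 0.17), and all 3 groups overlapped. ACADVL overlaps DLG4 and ACADM the pseudogene DLSTP1, both on the other strand.

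The electron transfer flavoprotein, made of ETFA and ETFB, and its membrane oxidoreductase ETFDH accept the electrons of all these dehydrogenases. ETFA was at 12.1 ± 1.64 FPKM in Control and 11.6 ± 0.692 in OX-LDL, and ETFB at 4.40 ± 0.734 and 3.82 ± 0.418. ETFDH was at 4.10, 3.92 and 3.14 FPKM in Control and at 2.23, 3.53 and 2.80 FPKM in OX-LDL. OX-LDL 2 lay within the Control range and the other libraries below it (log2 fold change -0.35, SE 0.20, adjusted p = 0.289). ETFDH overlaps PPID on the other strand. None of the 3 genes was called by edgeR or DESeq2 or had an unadjusted p under 0.05. Among all 19510 tested genes, edgeR called 15.3%, DESeq2 called 22.7%, and 5936 had an unadjusted p under 0.05.

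The mitochondrial trifunctional protein carries out the later reactions of the spiral for long chains, and its α and β subunits are encoded by HADHA and HADHB. HADHA was at 65.8, 65.6 and 68.9 FPKM in Control and at 71.3, 69.9 and 67.1 FPKM in OX-LDL. HADHB was at 34.8, 33.6 and 38.9 FPKM in Control and at 28.5, 29.5 and 26.3 FPKM in OX-LDL. The HADHA groups overlapped, and the OX-LDL values of HADHB all lay below its Control values. The log2 fold change was 0.09 for HADHA (SE 0.06, adjusted p = 0.382) and -0.32 for HADHB (SE 0.09, adjusted p = 0.0509), so neither was called. HADHB passed in 5 of 9 other settings, with adjusted p from 0.0227 to 0.131 over the 9. It was called in 0 of the 6 fits that left out a library, with adjusted p from 0.0554 to 0.162. The ratio of HADHA to HADHB was 1.89, 1.95 and 1.77 in Control and 2.51, 2.37 and 2.55 in OX-LDL, with means of 1.87 ± 0.0915 and 2.47 ± 0.0934, and the spread within a group was small beside the gap.

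The genes lie head to head on chromosome 2, HADHA at chr2:26190635-26244632 on the minus strand and HADHB at chr2:26243170-26290464 on the plus strand, so their ends overlap in the deposited table. Their RefSeq starts are 307 bases apart (that of HADHB lies 1769 bases from its start in the deposited table), and the window upstream of HADHA lies between them. It is shown because both genes share it, with capitals as above.
HADHA, chr2:26244633-26244882, minus strand: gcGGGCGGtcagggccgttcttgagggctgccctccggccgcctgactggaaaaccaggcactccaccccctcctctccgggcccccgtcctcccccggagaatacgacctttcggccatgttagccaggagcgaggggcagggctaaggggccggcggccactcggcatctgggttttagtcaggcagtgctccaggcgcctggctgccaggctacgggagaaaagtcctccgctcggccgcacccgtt
The window holds 1 GC box and no CCAAT box, half-site or response element. Reads from the overlap cannot be divided between these genes unless the counting used strand, which was not stated, and its part in the ratio was not tested.

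The other enzymes of these steps differed less. ECHS1 was at 95.0 ± 2.11 FPKM in Control and 92.9 ± 4.98 in OX-LDL (log2 fold change -0.001, SE 0.07). The thiolases ACAA2 and ACAT1, which release acetyl-CoA or handle acetoacetyl-CoA, were at 15.3 ± 0.429 and 12.9 ± 0.671 FPKM in Control and at 14.2 ± 1.07 and 13.3 ± 0.375 in OX-LDL. HADH, the dehydrogenase for shorter hydroxyacyl chains, was at 2.95, 2.62 and 2.90 FPKM in Control and at 3.17, 3.68 and 3.18 in OX-LDL. Its groups were separate by a small gap (log2 fold change 0.27, SE 0.10, adjusted p = 0.122). None of the 6 genes of these steps was called by edgeR, 2 had an unadjusted p under 0.05 (HADHB and HADH), and DESeq2 called 1, HADHB. Over all 19510 tested genes, 5936 had an unadjusted p under 0.05, and DESeq2 called 22.7%.

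Unsaturated fatty acids need auxiliary enzymes that move or reduce double bonds. ECI2, an enoyl-CoA isomerase found in mitochondria and peroxisomes, was at 14.0, 13.0 and 14.4 FPKM in Control and at 19.6, 18.4 and 18.9 FPKM in OX-LDL. The groups were tight and well apart. ECI2 (chr6:4115689-4135597, minus strand) rose 1.41-fold (log2 fold change 0.49, SE 0.07, adjusted p = 0.00900), and it was called without any single library and in all 9 other settings.

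ECI1, the mitochondrial isomerase, was at 4.65, 5.75 and 5.47 FPKM in Control and at 4.61, 4.38 and 2.73 FPKM in OX-LDL. Its groups did not overlap, though Control 1 lay just above OX-LDL 1, and the log2 fold change was -0.41 (SE 0.21, adjusted p = 0.242). The ratio of ECI2 to ECI1 was 2.63 ± 0.370 in Control and 5.12 ± 1.55 in OX-LDL. DECR1, the dienoyl-CoA reductase, was at 6.20 ± 1.05 and 7.76 ± 1.72 FPKM with overlapping groups; it overlaps NBN on the other strand.

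Both peroxisomal enzymes were higher in every OX-LDL library than in every Control library, and 1 was called. Over all tested genes, 37.2% had separate groups (16.8% higher) and 15.3% were called (7.91% higher). EHHADH, the bifunctional hydratase and dehydrogenase, was at 14.0, 13.2 and 15.9 FPKM in Control and at 18.5, 19.4 and 18.4 FPKM in OX-LDL. It rose 1.34-fold (chr3:185190624-185281990, minus strand; log2 fold change 0.42, SE 0.09, adjusted p = 0.0263). The call was kept without Control 3 and lost without any other single library, where the adjusted p reached 0.0800. ACAA1, the peroxisomal thiolase, was at 2.15 ± 0.0716 and 2.40 ± 0.0780 FPKM, a log2 fold change of 0.19 (SE 0.09) that did not pass (adjusted p = 0.227).

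The libraries of a group lay close together for most genes. The highest library exceeded the lowest of the same group by more than 2-fold for 3 genes: ANGPTL4, PPARA (4.18-fold) and SLC25A20 (2.91-fold). For ACAA1 and HADHA it was 1.07-fold and 1.06-fold. The absolute log2 fold change was under 0.2 for 12 of 29 genes.

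PDK4 belongs to a family of kinases that phosphorylate pyruvate dehydrogenase. Of 9 kinases, phosphatases and complex subunits in this list, 2 were called (22.2%), both higher, against 15.3% of all tested genes (7.91% higher). PDK1, known as a hypoxia-responsive isoform, was at 2.69, 2.14 and 2.88 FPKM in Control and at 6.81, 6.67 and 7.20 FPKM in OX-LDL (log2 fold change 1.45, SE 0.13, adjusted p = 0.00180). PDK3 was at 4.12 ± 0.270 and 5.54 ± 0.207 FPKM (0.46, SE 0.08, adjusted p = 0.0155), with the call lost without Control 2 or OX-LDL 3 (adjusted p up to 0.0617). PDK2 was at 1.05 ± 0.0785 and 0.999 ± 0.159 FPKM.

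The summed FPKM of the 4 kinases went from 10.6 ± 0.698 in Control to 14.6 ± 0.685 in OX-LDL. PDK4 made up 26.8% ± 1.59 of this sum in Control and 7.73% ± 1.04 in OX-LDL, while PDK1 made up 24.3% ± 2.62 and 47.3% ± 1.55. The ratio of PDK1 to PDK4 was 0.912 ± 0.150 in Control and 6.23 ± 1.12 in OX-LDL.

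**Figure D3:**
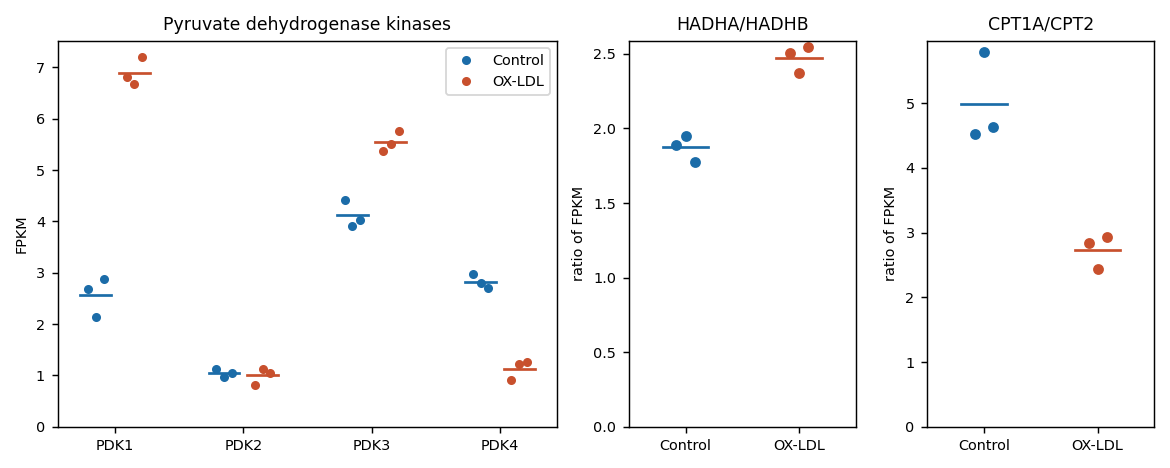
FPKM of the pyruvate dehydrogenase kinases PDK1 to PDK4 (left) and the ratios of HADHA to HADHB and of CPT1A to CPT2 (middle and right). Points are the 3 libraries of each group, blue for Control and orange for OX-LDL, and lines are group means; PDK1 and PDK4 lie at like levels in Control and apart in OX-LDL, and the groups of both ratios do not overlap.

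A further 7 lists of neighbouring genes were read in the same fit. Together with the pyruvate dehydrogenase list they hold 94 genes, of which 76 reached the minimum level and 19 were called (25.0%), 13 higher and 6 lower, beside 15.3% of all tested genes (7.91% higher and 7.42% lower). The 13 include FABP3, which reached the minimum level only through its OX-LDL libraries.

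In peroxisomal beta-oxidation, 6 of 11 tested genes (of 13) were called, all higher, against 15.3% of all tested genes (7.91% higher). The median log2 fold change was 0.41, beside -0.00432 for all tested genes. HACL1, which cleaves 2-hydroxyacyl-CoAs, rose from 6.41 ± 0.440 to 9.29 ± 0.198 FPKM (log2 fold change 0.57, SE 0.09, adjusted p = 0.0117). SCP2, the thiolase and sterol carrier, rose by 0.50 (SE 0.10) and PHYH, which starts phytanic acid breakdown, by 0.85 (SE 0.20). ABCD3 and AMACR were also called. HACL1 was called without any single library, SCP2 in 3 of 6 such fits (lost without Control 2, OX-LDL 1 or OX-LDL 3), PHYH (kept only without OX-LDL 2) and ABCD3 (kept only without Control 1) in 1, and AMACR in 0. The highest adjusted p in these fits was 0.121, and the list's count ranged from 1 to 5. EHHADH and ACAA1, described above, belong to this pathway but not to this list.

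In fatty acid uptake and activation, 4 of 10 tested genes (of 13) were called, all higher, against 15.3% of all tested genes (7.91% higher). The 4 include FABP3, which reached the minimum level of 0.1 FPKM only through its OX-LDL libraries and so had to differ; the other 3 load fatty acids onto CoA. ACSL4 went from 23.4 ± 1.94 to 36.6 ± 2.21 FPKM (log2 fold change 0.68, SE 0.09, adjusted p = 0.00639), and ACSL3 from 25.5 ± 2.93 to 38.5 ± 2.51 FPKM (0.63, SE 0.10, adjusted p = 0.0121; 0.0522 without Control 2). ACSL5 rose by 0.38 (SE 0.10) and kept its call only without OX-LDL 2. FABP3, a fatty acid binding protein, had at most 7 counts in a Control library and was at least 3.03-fold higher in OX-LDL, measured against a floor of 12 counts (3 read pairs) per Control library. Its call was also kept only without OX-LDL 2.

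Ketone body metabolism had 1 of 5 tested genes called (20%), beside 15.3% of all tested genes. It was higher, as were 7.91% of all tested genes. OXCT1, which activates acetoacetate for use as fuel, rose from 6.97 ± 1.10 to 12.4 ± 1.37 FPKM (log2 fold change 0.86, SE 0.14, adjusted p = 0.0125) and was called without any single library.

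Among further PPAR target genes, 8 of 15 were below the minimum level, and 1 of 7 tested was called (14.3%), beside 15.3% of all tested genes. The called gene was lower, as were 7.42% of all tested genes. The list moved both ways, with 4 log2 fold changes above 0, 3 below 0 and a median of 0.13 (-0.00432 for all tested genes). PLIN4, a lipid droplet coat protein, fell from 1.21 ± 0.175 to 0.626 ± 0.0603 FPKM (log2 fold change -0.91, SE 0.17, adjusted p = 0.0163; 0.0632 without OX-LDL 1). PLIN2, the main droplet coat protein of most cells, was at 25.2 ± 1.49 and 27.0 ± 0.852 FPKM and was not called; it was picked with its values known.

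In the list of PPAR partners and regulators of mitochondrial biogenesis, 5 of 14 tested genes were called, all lower, against 15.3% of all tested genes (7.42% lower). The acetyltransferase and coactivator CREBBP fell from 8.64 ± 0.414 to 5.30 ± 0.101 FPKM (log2 fold change -0.67, SE 0.06, adjusted p = 0.00224). The deacetylase SIRT1, which acts on PGC-1α, fell from 12.6 ± 0.502 to 9.23 ± 0.181 FPKM (-0.41, SE 0.07, adjusted p = 0.0131). The corepressor NCOR1 and the PGC-1-related coactivator PPRC1 each fell by 0.44 on the log2 scale (SE 0.09), and EP300, the fifth, by 0.31 (SE 0.07). CREBBP was called without any single library, SIRT1 in 4 of 6 such fits (lost without Control 2 or OX-LDL 3), and the other 3 in 2 of 6, with adjusted p of up to 0.0868, and the list's count ranged from 1 to 6.

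The remaining lists had no call by edgeR. Of carnitine supply and CPT1 control, 0 of 10 tested genes were called, 3 had an unadjusted p under 0.05, and DESeq2 called 1. Of the other acyl-CoA dehydrogenases and FAD supply, 0 of 10 were called, 1 had an unadjusted p under 0.05, and DESeq2 called 1. Over all 19510 tested genes, edgeR called 15.3%, 5936 had an unadjusted p under 0.05, and DESeq2 called 22.7%.

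**Figure D4:**
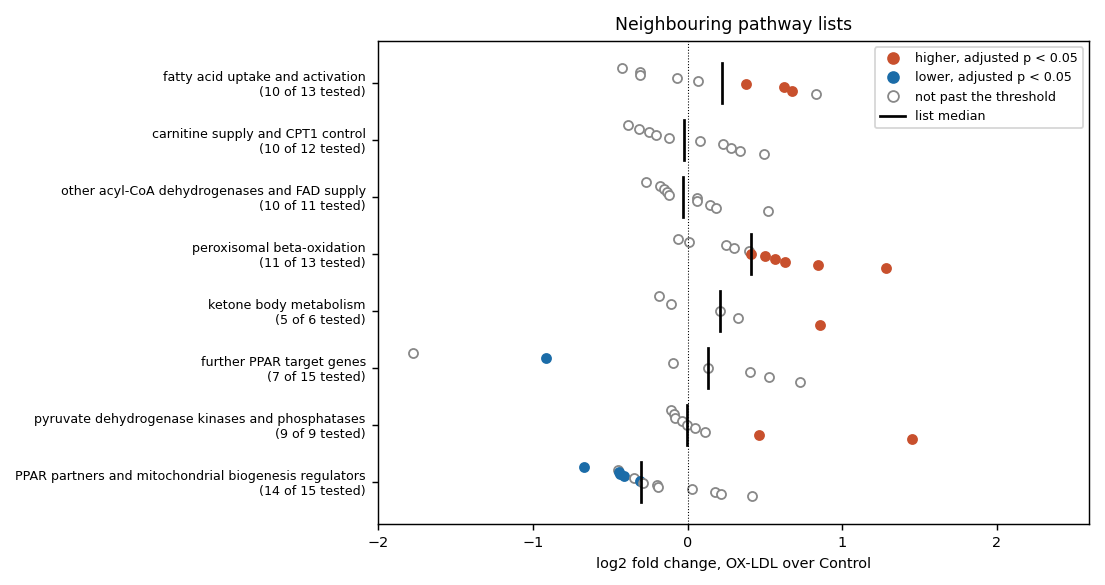
Log2 fold change of OX-LDL over Control for the tested genes of 8 neighbouring lists, with list medians as black lines. Each point is 1 gene, orange where called higher, blue where called lower and open where not past the threshold; FABP3 is left out because its Control libraries are below 12 counts, and the called genes of the peroxisomal list lie above 0 and those of the partner list below 0.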

How the data were processed

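RNA-seq libraries of HK-2 cells (3 Control, 3 OX-LDL) had been prepared with a strand-marking poly(A) protocol and sequenced in pairs. Per the labels, the authors used cutadapt 1.9, HISAT2 2.0.4, StringTie 1.3.4d, edgeR and DESeq2 with GRCh38. The authors deposited 1 table with estimated counts per gene, already whole numbers so that rounding changed nothing, and FPKM values beside them. Gene coordinates matched those of GENCODE 29 exactly for 81.2% of 58552 shared identifiers. About 4 deposited counts stood for 1 read pair, so the floor was 12 counts.

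Counts of the 19510 genes that averaged 0.1 FPKM or more were fitted with edgeR 4.0.16 (TMM, quasi-likelihood, group as the only term) and adjusted by the Benjamini-Hochberg method. Alternatives were DESeq2 1.42.0, RLE size factors, no minimum, a minimum of 1 FPKM, limma 3.58.1 on log2(FPKM + 0.1), the same median-centred, log2(FPKM + 1), counts scaled to 1 per read pair, a replicate block and each library left out. The fits were tested on simulated data. The smallest p an exact permutation test of 3 against 3 can give is 0.1, so it was not used. The 29 genes, their roles and the neighbouring lists were chosen with earlier results of these data known. All 29 are named; of each neighbouring list the 4 called genes with the smallest p are named, except where a gene is not reported here, and others named there were picked after their values were seen. Promoter sequences are RefSeq's.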

Additional observations from a re-analysis of the deposited data

How the results depend on the processing

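The number of called genes among the 29 was 6, beside 2991 of all tested genes and 19 in the neighbouring lists. With a replicate block these were 3 (ECI2, UCP2 and PDK4), 1636 and 9. The libraries share only a number: same-numbered Control and OX-LDL libraries had correlations of -0.106, -0.034 and -0.007 in their deviations from the group means over 12259 genes, and no library correlated best with its own number. When each library was left out in turn, the counts ranged from 2 to 5 among the 29, from 1161 to 2943 over all genes and from 7 to 20 in the neighbouring lists, and the median log2 fold change of the 29 genes, -0.029 with all libraries, from -0.080 to 0.035. DESeq2 called 9 of the 29, adding CPT2, CRAT and HADHB, and 4430 genes in all. ACADSB was not called without a minimum level or by limma without centring, and CPT1A not by limma with median centring; no called gene changed direction under any alternative. PDK4 and ECI2 were called under all of them. The cause of the lost calls was not tested. With 3 libraries per group, differences of the size seen for CPT2, HADH and CRAT did not pass the threshold in edgeR.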
